A study of Homo sapiens with 9 samples.

Results

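The comparison of *PHF6* siRNA1 with control siRNA in the T-ALL cell line ALL-SIL covered 6 of the 9 arrays of the series, 3 with *PHF6* siRNA1 and 3 with control siRNA, chosen by the treatment in their labels. ALL-SIL is an established line of T-cell acute lymphoblastic leukemia that carries a rearranged *TLX1* gene. Both groups were electroporated with siRNA, collected at 96 h according to most labels and at 72 h according to a free-text description, and numbered as replicates 1 to 3, which were used as pairs. The study's methods give the longer time. The 3 remaining arrays, with *PHF6* siRNA2, entered the statistical model so that all groups shared an estimate of the spread, and their values are given beside those of siRNA1 where they bear on it. RNA was hybridized to one-colour arrays whose custom design adds lncRNA probes to probes for known genes. All samples came from 1 cell line, so that differences between replicates are differences between transfections or their handling. The study's methods call the samples independent without describing the cultures behind them. The p-values measure only the spread between these samples.

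PHF6 is a zinc finger protein of the nucleus that binds chromatin and the nucleosome remodelling complex NuRD, and the X-linked *PHF6* gene is recurrently inactivated in T-ALL. T-ALL cells resemble thymocytes arrested during their development, when Notch signalling, the IL7 receptor and the pre-T cell receptor guide survival and commitment. A knockdown with siRNA lowers the transcript for some days without removing the gene.

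Values are normalized log2 values, on which a difference of 1 is a factor of 2. Testing was limited to the 31982 probes that the scanner software marked well above background on 3 or more of the 6 arrays, and these include 14316 genes represented by their brightest probe. So marked were 31815, 30221 and 32627 probes on the control arrays and 32642, 29694 and 33751 on the siRNA1 arrays. Replicates 1 and 2 of each group lay on slide 1 and replicate 3 on slide 2.

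*PHF6*, the targeted gene, had 1 probe. Its value was 11.08, 11.16 and 10.88 with control siRNA and 9.43, 9.73 and 9.13 with *PHF6* siRNA1. Every siRNA1 array was thus below every control array, as the labels imply. The log2 fold change was -1.61 (limma, adjusted p = 0.000582, with a standard error of 0.10), which leaves the transcript 3.06-fold lower. A two-sided exact permutation of the 6 arrays gave p = 0.10, the smallest value that 3 against 3 arrays allow. With *PHF6* siRNA2 the values were 9.23, 9.31 and 9.16. The difference of siRNA2 from siRNA1 was -0.20 (limma, adjusted p = 0.564, with a standard error of 0.10).

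The cells carried the transcripts that define a cortical T lymphoblast. All 9 arrays showed each of the 18 markers of such cells well above background, and *TLX1* had values of 11.34, 11.30 and 11.33 with control siRNA and 11.18, 11.17 and 11.08 with siRNA1. The siRNA1 arrays were lower, by 0.18 on average, and the difference was not called (limma, adjusted p = 0.326). Of the markers of other cells, 14 of 18 erythroid and megakaryocyte, 8 of 15 monocyte and macrophage, 7 of 14 NK and cytotoxic, 9 of 20 B-lineage and 4 of 12 fibroblast and endothelial genes on the array passed that mark on all 9 arrays. The defining genes *HBB*, *GATA1*, *S100A8*, *S100A9*, *EBF1*, *CD22*, *COL1A2* and *COL3A1* were well above background on none. Probe signals do not compare levels between genes. The brightest probe was that of *TFRC* in the erythroid, *FCER1G* in the monocyte, *NKG7* in the NK and *PECAM1* in the fibroblast and endothelial list. In the B-lineage list it was that of *CD79A* or *POU2AF1*, depending on the array.

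Summed over its genes and again as log2, the NK list had 15.25, 15.28 and 15.17 with control siRNA and 14.91, 14.93 and 14.71 with siRNA1. The B-lineage list, which includes *IGLL1*, had 14.18, 14.11 and 13.93 and then 13.65, 13.66 and 13.51. The NK sum is nearly that of *NKG7* alone, which had 15.22, 15.25 and 15.14 with control siRNA and was not called. The sums ranged from 15.47 to 15.71 with control siRNA and 15.31 to 15.52 with siRNA1 for the erythroid, 10.90 to 11.35 and 10.70 to 11.11 for the monocyte and 11.50 to 11.91 and 11.20 to 11.64 for the fibroblast and endothelial list. For the cortical T markers themselves they were 17.60 to 17.76 and 17.46 to 17.66. All 6 sums were lower with siRNA1 in 3 of 3 pairs. Their part in the result was not tested.

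In total, limma called 298 of 31982 probes at an adjusted p under 0.05, or 0.932%, with 146 higher and 152 lower. Of the 14316 genes, 42 (0.293%) were higher and 89 (0.622%) lower with siRNA1. All 131 called genes moved the same way in 3 of 3 replicate pairs, and in 89 of them the siRNA1 and control arrays did not overlap, as in 1657 of the 14316 genes tested. The changes were small, since 7 of the higher and 10 of the lower genes reached a fold of 2. The median log2 fold change over all genes tested was -0.05. Of the individual values written out, 8940 were negative (62.6%) and 5352 positive.

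The count rests on the pairing. Without the replicate block limma called 2 probes, both lower, which were those of *PHF6* and *IGLL1*, with 0 genes higher. In that fit 787 of 14316 genes had an unadjusted p under 0.05, against 2639 with the block. Unchanged genes alone would put a share of about 0.05 there, so the 787 are no support for further changes. With the slide as a block in place of the replicate number it called 10 probes. Leaving out replicate 1, 2 or 3 of all groups gave 26, 6 and 250 probes, the last being the fit within slide 1. Leaving out control replicate 1, 2 or 3 gave 35, 42 and 940, and leaving out siRNA1 replicate 1, 2 or 3 gave 60, 18 and 73. Among these 9 fits the count was lowest without replicate 2 of all groups, and it rose above 298 only without control replicate 3, where 154 genes were called higher and 109 lower. All 131 called genes kept their sign in these 9 fits. As they moved the same way in 3 of 3 pairs, leaving out a whole replicate could not turn it, so this is no measure of stability. Of the 42 called genes picked by the naming rule 4, *PHF6*, *IGLL1*, *CHDH* and *CXCR3*, were called in each of the 9 fits.

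**Figure D1:**
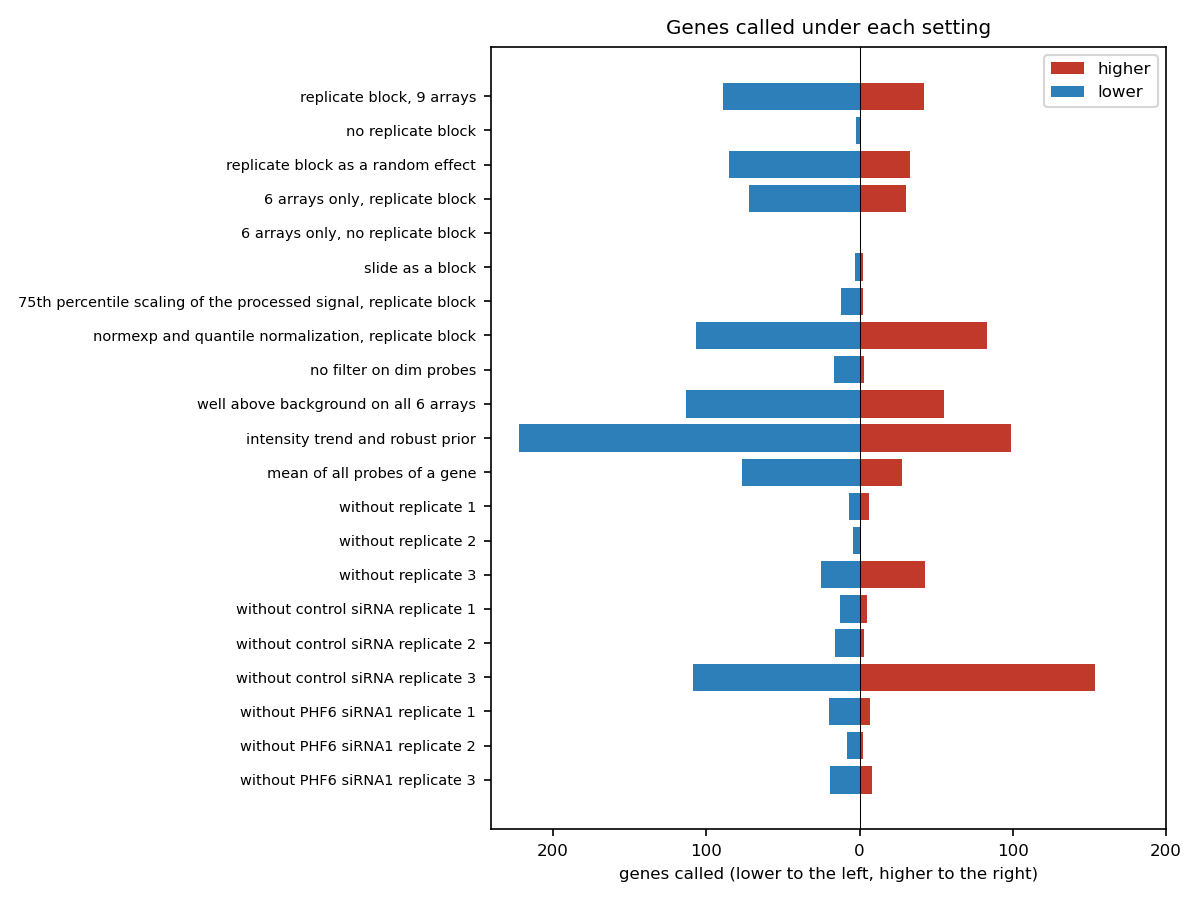
Number of genes called lower (blue, to the left) and higher (red, to the right) at an adjusted p under 0.05 under each setting. The fit with the replicate block and 9 arrays gave 89 and 42, and the fit without control siRNA replicate 3 gave 109 and 154.

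Among the genes that fell, *IGLL1* changed most. It encodes a surrogate light chain component of the pre-B cell receptor. Its values were 12.04, 12.00 and 11.81 with control siRNA and 10.24, 10.55 and 9.94 with siRNA1. The groups were separated by more than their spread, with a log2 fold change of -1.71 (limma, adjusted p = 0.000639, with a standard error of 0.12). *PTCRA*, which encodes the corresponding partner chain of the pre-T cell receptor, had values of 8.62, 8.96 and 8.17 with control siRNA and 7.76, 7.94 and 7.39 with siRNA1. Its log2 fold change was -0.88 (limma, adjusted p = 0.00691), lower in 3 of 3 pairs, and it was called in 13 of 20 alternative settings against 19 of 20 for *IGLL1*.

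Since the 2 genes encode surrogate chains and both fell, their promoters are shown, a choice made after their values were seen. They are RefSeq sequences of build GRCh38.p14, 250 bases before to 50 after the start site, on the strand of the gene, at chr22:23580241-23580540 (minus strand) for *IGLL1* and chr6:42915803-42916102 (plus strand) for *PTCRA*. Capitals mark the E-box sequence CAGCTG, which reads the same on both strands.
IGLL1: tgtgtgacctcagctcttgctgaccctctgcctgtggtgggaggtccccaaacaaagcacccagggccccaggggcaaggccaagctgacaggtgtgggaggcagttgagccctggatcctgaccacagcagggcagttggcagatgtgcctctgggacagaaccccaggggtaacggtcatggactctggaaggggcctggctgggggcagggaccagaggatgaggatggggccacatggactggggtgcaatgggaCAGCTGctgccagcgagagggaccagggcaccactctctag
PTCRA: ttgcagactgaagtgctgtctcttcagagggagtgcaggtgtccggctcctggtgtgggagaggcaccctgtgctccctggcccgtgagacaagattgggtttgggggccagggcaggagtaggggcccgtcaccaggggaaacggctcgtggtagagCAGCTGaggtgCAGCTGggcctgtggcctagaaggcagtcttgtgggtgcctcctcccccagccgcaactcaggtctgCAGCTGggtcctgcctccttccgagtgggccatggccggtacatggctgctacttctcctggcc
It occurs 1 time in the first and 3 times in the other. Of 27305 promoters of this length, 17.7% hold it, as do 17.6% of the 11304 that belong to genes tested. Among the called genes it is in 18 of 61 promoters of lower genes and 2 of 27 of higher genes, and the related CAGGTG, which is in 2152 of the 11304 promoters of genes tested, has the same counts. It was chosen out of 6 sequences searched on both strands, CAGCTG or CAGGTG or CACGTG or TGGGAA or AGATAA or CCGGAA, and the match is a description of these letters only.

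*PRSS57*, which encodes a serine protease of neutrophil granules, had values of 14.74, 14.53 and 14.14 with control siRNA and 13.61, 12.85 and 12.38 with siRNA1. All siRNA1 arrays were below all control arrays, although replicate 3 was the lowest in both groups. The log2 fold change was -1.52 (limma, adjusted p = 0.00221). *CHDH*, the mitochondrial choline dehydrogenase, went from 9.62, 8.93 and 9.57 to 8.14, 7.51 and 8.04, a log2 fold change of -1.48 (limma, adjusted p = 0.000582). *FAM30A*, a non-coding transcript, fell by 1.40 on the log2 scale (limma, adjusted p = 0.0112).

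*CXCR3*, a chemokine receptor of activated T cells, had values of 9.21, 7.91 and 8.85 with control siRNA and 7.83, 6.33 and 7.62 with siRNA1. Replicate 2 was the lowest in both groups, and the difference within pairs gave a log2 fold change of -1.40 (limma, adjusted p = 0.000639, with a standard error of 0.10). It was -0.82 with the mean of the gene's probes, and the gene was not called without the replicate block (limma, adjusted p = 0.810) or with the slide as a block (limma, adjusted p = 0.299). *ZNF683*, a transcription factor of tissue-resident lymphocytes, had a log2 fold change of -1.46 (adjusted p = 0.0112), *GPR65*, an acid-sensing receptor, one of -1.15 (adjusted p = 0.00378), and *NCR3*, an activating NK receptor, one of -1.11 (adjusted p = 0.00623), each from limma. The remaining genes of the 15 largest decreases were *S100A4*, *LOC100132741*, *HLA-DMB*, *MYO1F*, *A4GALT* and *BIN2*, with log2 fold changes from -1.08 to -0.89.

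Of 17 genes of the CD3 complex and T cell surface, 0 were higher and 3 lower, beside 0.293% and 0.622% of all genes, with a median of -0.18 beside -0.05. The 3 were *PTCRA*, *CD7*, an early T-lineage antigen, and the costimulatory receptor *CD28*. *CD7* had values of 13.46, 13.10 and 13.34 with control siRNA and 12.92, 12.32 and 12.29 with siRNA1, and a log2 fold change of -0.79 (limma, adjusted p = 0.0297). *CD28* had one of -0.77 (limma, adjusted p = 0.0223), and its groups overlapped.

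All 6 tested GIMAP genes, which encode GTPases of lymphocytes, had negative log2 fold changes, with a median of -0.41, and 2 were called lower, where 62.6% of the values for all genes were negative and 0.622% of genes were called lower. *GIMAP5* went from 11.22, 11.27 and 11.49 to 10.78, 10.54 and 10.75 and *GIMAP6* from 11.98, 12.05 and 11.88 to 11.48, 11.16 and 11.46. Their log2 fold changes were -0.64 and -0.60 (limma, adjusted p = 0.0313 and 0.0409). Each was called in 1 of the 9 fits that left out arrays.

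*IL7R*, the receptor chain for the cytokine that sustains thymocytes, was among the genes that rose. Its values were 7.04, 8.05 and 7.59 with control siRNA and 7.60, 9.04 and 9.13 with siRNA1. The groups overlapped, as siRNA1 replicate 1 lay below control replicate 2, but the gene was higher in 3 of 3 pairs. The log2 fold change was 1.03 (limma, adjusted p = 0.0255, with a standard error of 0.16), and the gene was called in 8 of 20 alternative settings. It was the only gene called among 23 genes of the IL7 receptor, JAK and STAT list, beside 0.293% of all genes called higher. The median of the list was -0.17, where that of all genes was -0.05, and *STAT5A* had a log2 fold change of -0.46 (limma, adjusted p = 0.0557).

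*KLF2*, a transcription factor of T cell quiescence and trafficking, had values of 8.82, 8.85 and 8.86 with control siRNA and 9.32, 10.01 and 9.86 with siRNA1. The control arrays were close together and all siRNA1 arrays lay above them. The log2 fold change was 0.88 (limma, adjusted p = 0.0241). *CTTN*, which encodes the actin-binding protein cortactin, went from 9.15, 9.26 and 8.71 to 10.14, 9.98 and 9.82, a log2 fold change of 0.94 (limma, adjusted p = 0.00691). *ITGB7*, an integrin chain and the other called member of the 15 trafficking genes, fell by 0.58 on the log2 scale (limma, adjusted p = 0.0283). Beside these calls, 0.293% of all genes were called higher and 0.622% lower. The list had a median of -0.08, where that of all genes was -0.05.

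Further increases concerned transcripts named after the intron of a host gene. *ASAP1-IT1* and *RUNX1-IT1* had log2 fold changes of 1.25 and 1.18 (limma, adjusted p = 0.0432 and 0.0226), and *SND1-IT1* was called too (limma, adjusted p = 0.0314). *RUNX1-IT1* had values of 8.85, 9.20 and 8.79 with control siRNA and 10.09, 10.73 and 9.55 with siRNA1. Of 9 tested transcripts with such names, a group formed after the values were seen, 3 were called higher and 0 lower, and 9 had positive values with a median of 0.52. Over all genes 0.293% were called higher, 5352 values were positive and the median was -0.05. The arrays do not tell a spliced intronic transcript from unspliced RNA of the host gene.

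Notch genes showed no called change in the receptors and signalling machinery, with 0 of 23 tested genes called and a median of -0.10. *NOTCH1* had values of 11.11, 10.88 and 11.20 with control siRNA and 10.52, 10.51 and 10.64 with siRNA1. The arrays did not overlap, but the log2 fold change of -0.50 did not pass the threshold (limma, adjusted p = 0.0716). Of 16 canonical *NOTCH1* targets, 1 was higher and 2 lower, which were *IL7R*, *PTCRA* and *GIMAP5*, beside 0.293% and 0.622% of all genes. Their median was 0.03, where that of all genes was -0.05, and *DTX1* had a log2 fold change of -0.57 (limma, adjusted p = 0.101). The study also measured *NOTCH1* and *DTX1* by RT-qPCR in ALL-SIL cells and reports both as lower after *PHF6* knockdown. A further list comes from a signature of Notch ligand in cord blood progenitors, and the study picked its genes by their response to *PHF6* knockdown in Jurkat cells. Of 74 such genes tested, 0 were higher and 5 lower, *FAM30A*, *GIMAP5*, *GIMAP6*, *IFITM3* and *IGLL1*, with a median of -0.10, to be read beside the same shares and median of all genes.

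Of the other genes the study discusses, *RAG1* had a log2 fold change of 0.66 (adjusted p = 0.0978), *IKZF1* of -0.18 (adjusted p = 0.316), *GATA3* of -0.06 (adjusted p = 0.781), *TBX21* of 0.04 (adjusted p = 0.912) and *VPREB3* of 0.10 (adjusted p = 0.638), each from limma. None of these 5 passed the threshold. For ALL-SIL cells the study reports both *RAG1* and *IKZF1* as significantly raised by *PHF6* knockdown. Here *IKZF1* was lower with siRNA1 in 3 of 3 pairs. In the B-lineage list *IGLL1* alone was called, out of 10 tested genes with a median of -0.18, beside 0.622% called lower and a median of -0.05 over all genes, and *CD79B* had a log2 fold change of -0.47 (limma, adjusted p = 0.0703). The 4 tested CD1 genes had a median of 0.53, and *CD1C* and *CD1B* had log2 fold changes of 0.56 and 0.51 (limma, adjusted p = 0.0829 and 0.116).

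Most lists held no called gene. This was so for 25 of 40, among them DNA replication (40 tested, median -0.08), mitosis (42, 0.01), ribosome biogenesis (42, -0.16), histones (50, 0.03), respiratory chain (53, -0.14), cholesterol synthesis (31, -0.18), glycolysis and hypoxia (28, -0.19), *ATF4* targets (34, -0.19), MHC class I (21, -0.17) and the NuRD complex with reported PHF6 partners (18, -0.10). Counts in the remaining lists are to be read beside the 0.622% of all genes called lower and the 0.293% called higher. Of 42 interferon-induced genes 2, *IFITM2* and *IFITM3*, fell by 0.57 and 0.47 on the log2 scale (limma, adjusted p = 0.0309 and 0.0414). The p53 targets *BBC3* and *TP53I3*, 2 of 24 tested, fell by 0.66 and 0.57 (limma, adjusted p = 0.0427 and 0.0469). Single members were called in the splicing list, *SRSF11* at -0.56, in the cytotoxic list, *GNLY* at -0.68, and in the NF-kB list, *RELB* at 0.76. Each was called in 6 of 20 alternative settings. Over these, *SRSF11* ran from -0.62 to -0.23 and *RELB* from 0.38 to 1.41.

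The largest positive estimates in the lists belonged to heat shock genes and did not pass the threshold. *HSPA1A* had values of 5.09, 9.81 and 7.10 with control siRNA and 5.11, 12.85 and 11.06 with siRNA1. With *PHF6* siRNA2 they were 5.26, 13.12 and 9.56, so that replicate 1 was low and replicate 2 high in every group. For siRNA1 against control the log2 fold change of 2.34 had a standard error of 0.61 (limma, adjusted p = 0.0936). *HSPA1A* was well above background on 2 of 3 control arrays. *HSPA6* behaved alike, with a log2 fold change of 1.67 (limma, adjusted p = 0.0771). *HSPA1B* had a smaller one of 0.56 (limma, adjusted p = 0.253) and was lower with siRNA1 in replicate 1. The *HSPA1A* estimate ran from 1.53 to 3.50 in the 9 fits that left out arrays and was called in 2 of them, both without control replicate 1. Of 31 tested heat shock genes 0 were called with all arrays, beside 0.293% of all genes called higher and 0.622% lower. The part of these heat shock differences between replicates in other results was not tested.

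Against the same control arrays, *PHF6* siRNA2 gave log2 fold changes of -2.02 for *IGLL1*, -1.37 for *PRSS57*, -1.39 for *CHDH*, -1.09 for *CXCR3* and -0.48 for *PTCRA*. It gave 1.44 for *IL7R*, 0.77 for *KLF2* and 1.15 for *CTTN*. Some other genes called lower with siRNA1 were called lower with siRNA2 too, such as *FAM30A*, *GPR65* and *NCR3* (limma, adjusted p = 0.00938, 0.0112 and 0.0120). Some were not called with siRNA2. Among the latter, *SRSF11*, *BBC3*, *GIMAP6*, *CD28* and *TP53I3* had siRNA2 values of -0.09, -0.19, -0.27, -0.30 and -0.31. For none of these did the difference of siRNA2 from siRNA1 pass the threshold. The controls are shared, so likeness between these values and those of siRNA1 is no independent support. The test of siRNA2 against siRNA1 called 10 of 31982 probes, and among the genes named here it called *ECEL1* and *MROH7*.

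**Figure D2:**
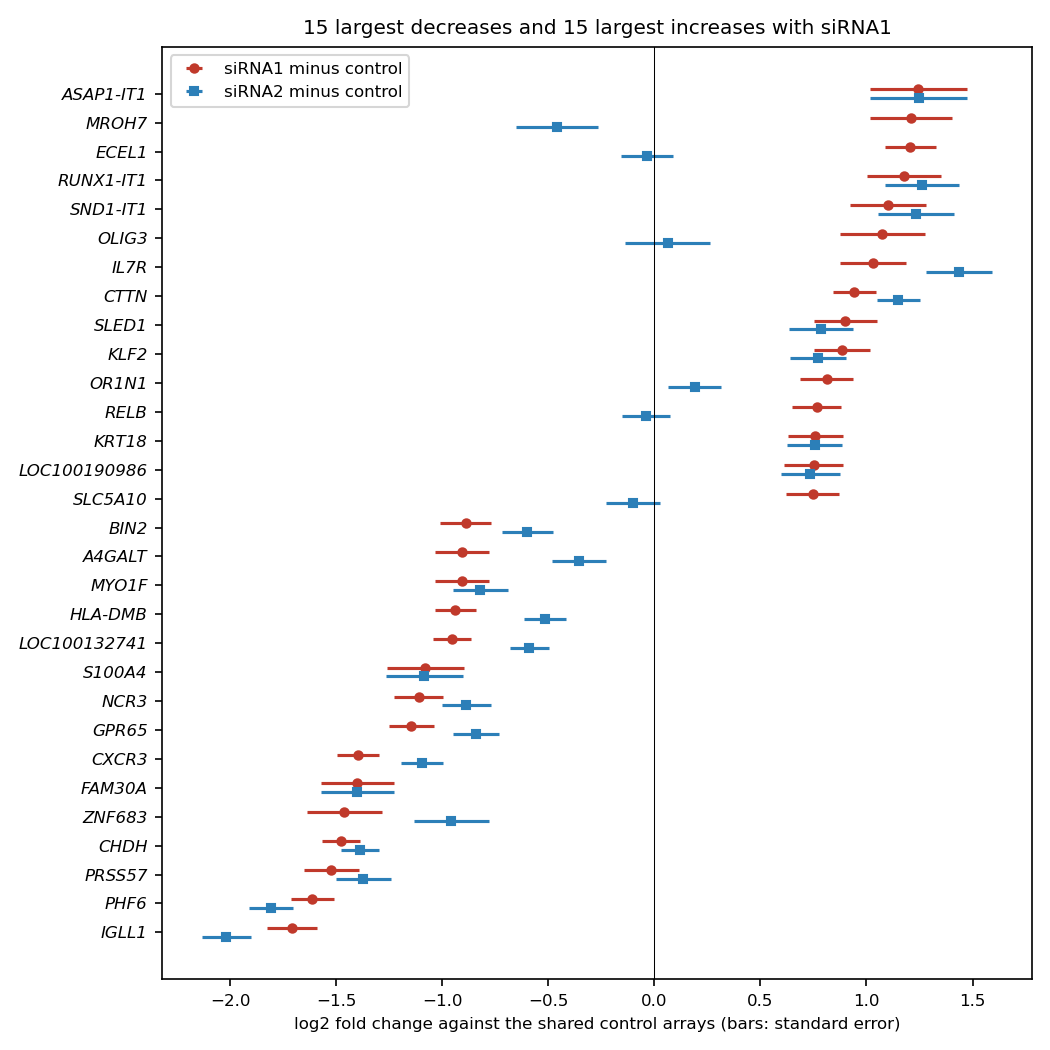
Log2 fold changes with standard errors of the 15 genes with the largest decreases and the 15 with the largest increases, for *PHF6* siRNA1 (red circles), by which they were chosen, and *PHF6* siRNA2 (blue squares) against the same control arrays. *ECEL1* and *MROH7* are the genes in the plot for which the siRNAs differed past the threshold.

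*ECEL1*, a membrane metalloprotease of neurons, had values of 5.39, 5.78 and 5.86 with control siRNA, 6.56, 6.74 and 7.34 with siRNA1 and 5.42, 5.42 and 6.09 with siRNA2. It was higher with siRNA1 alone, with a difference between the siRNAs of -1.24 (limma, adjusted p = 0.0141). *MROH7* had values of 8.37, 7.91 and 8.23 with control siRNA, 9.54, 9.67 and 8.93 with siRNA1 and 7.52, 7.84 and 7.79 with siRNA2. That difference was -1.67 (limma, adjusted p = 0.0275). *RELB*, *OLIG3*, *SLC5A10* and *OR1N1* were called higher with siRNA1 and had siRNA2 values of -0.04, 0.06, -0.10 and 0.19, but their differences did not pass the threshold (limma, adjusted p = 0.0821, 0.205, 0.0985 and 0.214). *OLIG3*, *SLC5A10* and *OR1N1* were well above background on 1 of 3 control arrays and 3 of 3 siRNA1 arrays, so the arrays on which they are high sufficed to pass them through the filter, and their calls are no support.

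Among 8370 tested lncRNA probes of the custom design, limma called 78 (0.932%), the same share as the 0.932% of all probes tested. All called probes together were 146 higher and 152 lower, and the lncRNA probes among them 49 higher and 29 lower. Of the 49, 6 were well above background on 0 control arrays and passed the filter only through the siRNA1 arrays on which they are high, so the count and the percentage are a description. For 1 called probe the files give a name, *BACE1AS* (log2 fold change 0.79, siRNA2 0.12), and for the other called probes transcript identifiers that the reference table does not pair with symbols. Probe CUST_1820_PI427704219 had values of 6.72, 7.21 and 6.80 with control siRNA and 5.22, 5.51 and 5.27 with siRNA1, a log2 fold change of -1.58 (limma, adjusted p = 0.000992). With siRNA2 its log2 fold change was -0.08, and the siRNAs differed (limma, adjusted p = 0.00469). Probe CUST_22178_PI427704219 fell by 1.25 on the log2 scale with siRNA1 and had a value of 0.02 with siRNA2, with a difference of 1.26 (limma, adjusted p = 0.00469).

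The 2 lncRNA probes that rose most were not well above background on any control array. CUST_6282_PI427704219 had values of 5.70, 7.23 and 6.02 with siRNA1 and was at least 2.79-fold higher. CUST_21658_PI427704219 had values of 6.13, 6.53 and 5.54 and was at least 2.30-fold higher. They passed the filter only through the siRNA1 arrays on which they are high, so no test is given. These bounds set the siRNA1 mean against the lowest signal that counts as well above background on each control array, or the probe's own where higher. With siRNA2 both probes were well above background on 0 of 3 arrays.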

How the data were processed

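RNA of ALL-SIL cells was measured on 9 one-colour arrays, 3 per group. Per the labels, the authors read them with Agilent Feature Extraction 9.1, whereas the file headers give 10.5.1.1. They deposited the intensity of each spot, flags, and a table of log2 values normalized with VSN, which followed the log2 of each array's own median intensity (r from 0.996 to 1.00). The table was analysed, all its columns being used. Symbols came from a RefSeq table by transcript accession, for 25728 of 34134 probes outside the lncRNA design.

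Groups were compared with limma 3.58.1 in R 4.3.3 over 9 arrays, with the replicate number as a fixed block (4 residual degrees of freedom) and Benjamini-Hochberg adjustment at 0.05, after tests on simulated data. The numbers come from the sample titles. Deviations from group means correlated at 0.50 to 0.62 in the 3 same-numbered pairs of siRNA1 and control arrays and at -0.43 to -0.12 in the 6 others. Deviations within a group cancel out, so positive values in the same-numbered pairs push the others down. The negative values are thus no further support for the pairing.

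Members and lists were chosen with earlier results of these data known. Named genes were those the study discusses, the 15 largest increases and 15 largest decreases among called genes with 3 of 3 pairs alike and signal above background, up to 4 called members of each list (or the 2 of smallest p), and top lncRNA probes. A gene's brightest tested probe represented it. No called gene had called probes of opposite sign, although 1 of the 33 with over 1 tested probe had a probe of opposite sign. Other normalizations, filters, blocks, priors and left-out arrays were tried.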

Additional observations from a re-analysis of the deposited data

Results flagged for a closer look

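For 2 of the named genes the effect of *PHF6* siRNA2 differed from that of *PHF6* siRNA1 in the test of the difference itself. *ECEL1* had a siRNA2 minus siRNA1 difference of -1.24 (limma, adjusted p = 0.0141, with a standard error of 0.12), with log2 fold changes against control of 1.21 for siRNA1 and -0.03 for siRNA2. Over the 20 alternative settings its siRNA1 value ran from 0.79 to 1.78 and was called in 16. *MROH7* had a difference of -1.67 (limma, adjusted p = 0.0275, with a standard error of 0.19), with log2 fold changes of 1.21 and -0.46.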

How the results depend on the processing

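The log2 fold change of *PHF6* was negative under all 20 alternatives, from -1.71 to -1.51, and past the threshold in 19. With only the 6 arrays and no replicate block it was -1.61 with an adjusted p of 0.0912 from limma, over a range from 4.21e-05 to 0.0912.

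The probes called, and the genes higher and lower, were 298, 42 and 89. They were 2, 0 and 2 with no replicate block and 10, 2 and 3 with the slide as a block. With the 6 arrays and no replicate block they were 0, 0 and 0. There 730 of 14316 genes had an unadjusted p under 0.05, where unchanged genes alone would put a share of about 0.05. The counts were 40, 2 and 12 with scaling of the processed signal to the 75th percentile. They were 45, 3 and 17 with no filter on dim probes, which adds probes to the adjustment. An intensity trend with a robust prior gave 721, 99 and 222. Normexp and quantile normalization gave 432, 83 and 107, so that 43.7% of called genes were higher in place of 32.1%, against 14.3% with the 75th percentile. The replicate block as a random effect, the 6 arrays with the block, the stricter filter and averaging the probes of each gene stayed within 1.5 times. Leaving out replicates or single arrays gave 6 to 940 probes, 0 to 154 higher and 4 to 109 lower genes. The causes of these shifts were not tested.

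All 42 called genes picked by the naming rule kept their sign under every alternative in which they had a value. These were 19 for *OLIG3*, *SLC5A10* and *OR1N1* and 20 for the rest of the 42. The kept signs are no measure of stability. Another block, another prior or the use of only the 6 arrays leaves each estimate as it was. In addition, all 42 genes had moved the same way in 3 of 3 pairs. Of the others, *GATA3* turned to 0.00761 with the 75th percentile and 0.0408 with normexp, *TBX21* to -0.0318 with normexp, with -0.200 to 0.206 in fits that left out arrays, and *VPREB3* to -0.190 with the mean of its probes, with -0.0227 to 0.165 in fits that left out arrays. Few arrays and, for dim probes, signal close to background limit the precision.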
